A study of Mus musculus with 10 samples.

Results

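The genes for 4 hypothalamic peptides and 1 of their receptors were read here: Crh (corticotropin-releasing hormone), Trh (thyrotropin-releasing hormone), Avp (arginine vasopressin), Oxt (oxytocin) and Crhr1, the receptor through which corticotropin-releasing hormone acts. They were found by the names the array files give to spots, which are descriptive names for Avp, Oxt and Trh, "Crf = Crh" for Crh and "CRH-R1" for Crhr1. Each gene had 1 spot, so the 5 genes cover 5 of the 22824 spots that were not controls, and 5 of 15191 distinct spot names. The assignment of the 2 alias names was not checked against clone sequences, which were not used here.

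The series compared, on 2-colour spotted arrays, the paraventricular nucleus (PVN) of mouse pups kept apart from the mother for 24 h with that of pups left with the mother. Litters were allotted to the conditions at random, and 6 animals per condition were used. Tissue was punched from frozen 100 µm sections with a 1 mm corer, punches of 2 animals were joined into each of 3 extracts per condition, and the amplified RNA of the extracts was joined in equal amounts into 1 separated pool and 1 non-separated pool of 40 µg each. Each of 10 arrays carried both pools. The 5 that had separated RNA in Cy5 and non-separated RNA in Cy3 are called separated-Cy5 arrays here, and the 5 that had separated RNA in Cy3 and non-separated RNA in Cy5 are called separated-Cy3 arrays. Apart from the separation, the labels state no difference between the groups and no genetic modification or drug in either. Strain, age, sex and litter of the animals are not given in the sources used here. The 10 arrays repeat 1 comparison of 2 pools, so every SD below is array error, and no test of animals or litters was possible.

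Corticotropin-releasing hormone and vasopressin, made by small neurons of the PVN and carried by portal blood to the pituitary, drive the secretion of corticotropin and through it of adrenal glucocorticoids. CRHR1 is the pituitary receptor of that step and is found in many brain regions. Thyrotropin-releasing hormone from other small PVN neurons drives thyrotropin and so thyroid hormone, which feeds back on the Trh gene through nuclear receptors. Large neurons of the same nucleus send vasopressin and oxytocin to the posterior pituitary, where vasopressin serves water balance and oxytocin serves milk release and parturition. In the bulk RNA of a punch, fewer cells of a type and less RNA per cell cannot be told apart.

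Promoter windows, 250 bases before to 50 after the gene's start, were read for 4 of the 5 genes (assembly GRCm38.p6). No window of Crh was used here. Those of the 3 peptide genes with the brighter spots are printed to give the sequence context of the genes whose values the results turn on. Oxt and Avp lie beside each other on chromosome 2 with 0 genes between them, and their windows are on opposite strands. The windows cover chr2:130582539-130582838 on the minus strand for Avp, chr2:130575919-130576218 on the plus strand for Oxt and chr6:92244601-92244900 on the minus strand for Trh. Capitals mark the matches to the motifs searched, 5′ to 3′ along the gene.
Avp: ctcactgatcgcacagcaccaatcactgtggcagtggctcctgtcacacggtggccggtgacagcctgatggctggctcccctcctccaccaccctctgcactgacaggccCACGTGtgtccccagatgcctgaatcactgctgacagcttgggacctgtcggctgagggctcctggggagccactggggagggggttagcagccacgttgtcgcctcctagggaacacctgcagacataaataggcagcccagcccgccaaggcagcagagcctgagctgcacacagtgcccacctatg
Oxt: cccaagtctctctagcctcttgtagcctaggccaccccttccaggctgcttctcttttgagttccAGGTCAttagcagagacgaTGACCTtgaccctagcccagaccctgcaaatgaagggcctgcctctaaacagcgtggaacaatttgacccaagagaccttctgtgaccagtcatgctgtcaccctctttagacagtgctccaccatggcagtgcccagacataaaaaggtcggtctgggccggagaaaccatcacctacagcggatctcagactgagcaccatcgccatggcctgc
Trh: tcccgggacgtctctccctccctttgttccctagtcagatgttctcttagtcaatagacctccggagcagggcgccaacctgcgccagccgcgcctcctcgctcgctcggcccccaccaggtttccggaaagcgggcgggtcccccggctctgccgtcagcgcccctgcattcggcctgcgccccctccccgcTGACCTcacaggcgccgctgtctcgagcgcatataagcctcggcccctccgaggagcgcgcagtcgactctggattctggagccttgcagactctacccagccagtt

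Searched on both strands were TGACGTCA, the cyclic AMP response element, TGACCT with its reverse AGGTCA, the half-site of many nuclear receptor elements, and CACGTG, an E-box. The Avp window held 1 E-box at bases 112 to 117, and 7.15% of the 32851 windows of the same length held that motif. The Oxt window held 2 half-sites, at bases 66 to 71 in the reverse reading and at bases 85 to 90, and the Trh window held 1 at bases 194 to 199, against a match in 16.3% of all windows. No cyclic AMP response element matched in these windows (1.79% of all windows), and the Crhr1 window on chromosome 11 (chr11:104132531-104132830, plus strand) matched none of the motifs. These are descriptions of letters in a window and say nothing of binding. GC content was 63.0% in the Avp window, 54.7% in the Oxt window, 67.0% in the Trh window and 75.0% in the Crhr1 window.

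Array quality set the scale of what could be read. Array medians lay between 286 and 529 intensity units in Cy5 and between 436 and 1011 in Cy3, and the median spot varied with an SD of 0.52 (log2 ratio) over the 10 arrays. Replicate 3 of the separated-Cy3 arrays stood apart in dye balance, with a median log2 Cy5 over Cy3 of 0.28, and replicate 3 of the other orientation stood at the opposite end, at -1.51, while the remaining 8 lay between -1.18 and -0.79. Replicate 4 of the separated-Cy3 arrays had the widest ratios, with a median absolute deviation of 0.57. The 2 dye orientations coincide with different scan days, so dye orientation and scan day cannot be told apart, and the mean of each orientation is also the value within its day. Across all spots the 2 orientation means of the pool ratio correlated at -0.15, and a ratio present in 1 orientation only is given as such below.

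The 5 spots differed widely in brightness. Of all non-control spots, the Avp spot was brighter than 66.6%, the Trh spot than 64.5%, the Oxt spot than 23.6%, the Crhr1 spot than 6.91% and the Crh spot than 0.832%. Each spot was also placed among the 1170 spots that the files name empty, an approach chosen after the data were seen. The empty spots had medians of 57.8 to 86.8 in Cy5 and 105 to 161 in Cy3, but 71 of them (6.07%) had a median above 1000, so their 95th percentile, at 670 to 2913 in Cy5 and 1031 to 4192 in Cy3, is a strict limit. None of the 5 spots passed that limit on at least 8 of the 10 arrays, while 11.2% of all spots did.

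**Figure D1:**
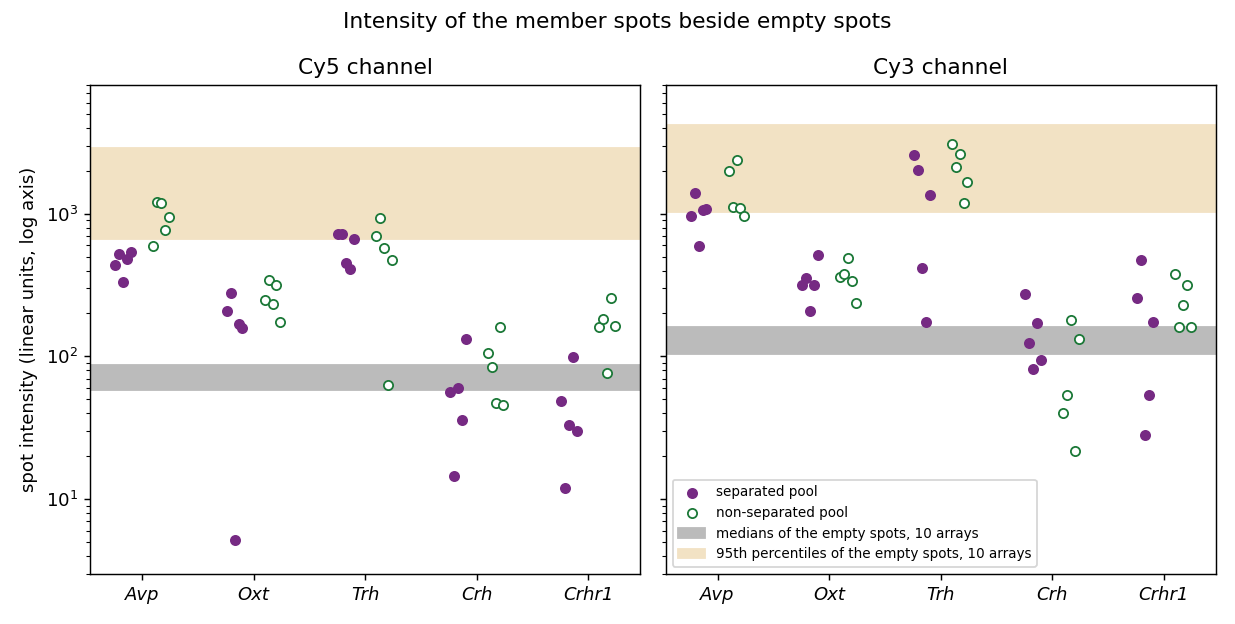
Spot intensity (linear units on a log axis) of the 5 genes in Cy5 (left) and Cy3 (right), filled points for the separated pool and open points for the non-separated pool, 5 arrays each. The grey band spans the medians of the empty spots over the 10 arrays and the tan band their 95th percentiles; every Avp point lies above the grey band, and the Crh points lie in and around it.

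Avp, Trh and Oxt lay above a typical empty spot in nearly all measurements. Avp was brighter than 93.2% to 95.4% of the empty spots in each of the 20 measurements, 10 per pool. Trh was above the empty median in 19 of 20, with a median place above 93.8% of empty spots in the separated pool and 94.1% in the non-separated pool. Oxt was also above the empty median in 19 of 20, with a median place above 89.9% of empty spots in the separated pool and 92.4% in the non-separated pool. The Crh spot gave no such separation, since it exceeded the empty median in 9 of 20 measurements, 4 with the separated pool and 5 with the non-separated pool. Crhr1 lay between, above the empty median in 4 of 10 measurements of the separated pool and 10 of 10 of the non-separated pool.

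Crh and Crhr1 shared a further property. Both belong to 82 spots whose names the files pad with blanks, of which 6 are lacZ, a bacterial gene used as a negative control, and 0 of the 82 passed the empty-spot limit. The 6 lacZ spots had median intensities of 57.2 to 567 in Cy5 and 158 to 1015 in Cy3, with a median over the 6 of 76.6 and 174. Crh, at medians of 58.4 in Cy5 and 109 in Cy3, lay at the lower end of that range in Cy5 and below it in Cy3, and Crhr1, at 87.8 and 201, lay within their range. The Avp, Oxt and Trh spots carry unpadded names. Oxt, at medians of 220 in Cy5 and 348 in Cy3, also lay within the range of the lacZ spots, but above their median in both dyes. Avp, at 570 and 1090, was just above the upper end of that range, and Trh, at 621 and 1842, was above it.

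For the pool ratios, the normexp background model (offset 50) and loess within each array were applied, and all log2 ratios were oriented as separated over non-separated, so that a negative value is lower in the separated pool. That direction follows the dyes in the labels. In the array files the first channel is Cy5, whereas the labels' first channel is Cy3, so if the labels' channel order followed the files, every direction given below would reverse. The authors' deposited table ran as non-separated over separated under the labels' dyes (correlations of -0.96 to -0.92 with the ratios used here, array by array), and its direction is not stated. A spot was called where the mean of the 2 orientation means was at least 1.5-fold from 0 and all 10 arrays had 1 sign. By this rule 0 of the 5 spots were called, beside 58 of 22824 spots (0.254%) over the whole array, 17 higher (0.0745%) and 41 lower (0.18%) in the separated pool. In limma, which here measures array error alone, 0 of the 5 had an adjusted p under 0.05, beside 83 of all spots (0.364%). An unadjusted p under 0.05 was found for 2 (Crhr1 and Avp), but also for 3450 of the 22824 spots.

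**Figure D2:**
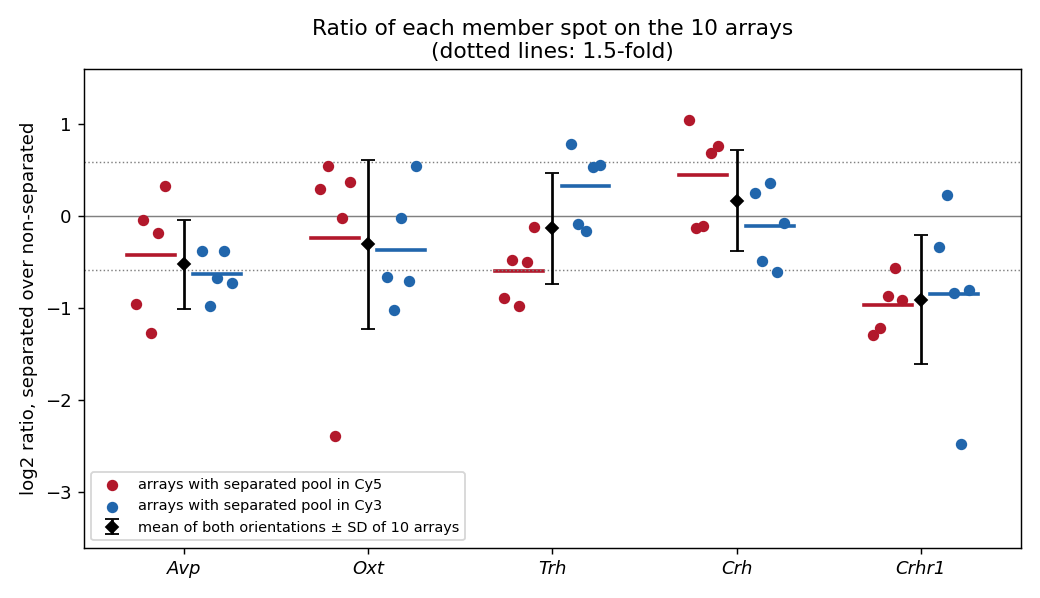
Log2 ratio of separated over non-separated RNA for each of the 5 spots on the 10 arrays, red for separated-Cy5 arrays and blue for separated-Cy3 arrays. Coloured bars are the orientation means, black diamonds the mean of both with the SD of 10 arrays, and dotted lines 1.5-fold; Avp and Crhr1 have 9 of 10 points below 0, and the Trh orientations lie on opposite sides of 0.

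Avp was lower in the separated pool on 9 of 10 arrays. Its intensities with the separated pool in Cy5 were 439, 523, 330, 480 and 542 in replicates 1 to 5, against 1981, 1115, 2394, 1103 and 971 for the non-separated pool in Cy3 on the same arrays. With the dyes exchanged, the separated pool in Cy3 gave 957, 1387, 591, 1059 and 1076, against 598, 1211, 1199, 772 and 946 for the non-separated pool in Cy5. The first set reads lower in the separated pool on all its arrays and the second higher on 4 of 5. By array medians Cy3 was the brighter dye on 9 of 10 arrays, a difference that the normalised ratios take out.

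The Avp log2 ratios were -0.96, -0.04, -1.27, -0.18 and 0.32 on the separated-Cy5 arrays, and -0.38, -0.98, -0.67, -0.38 and -0.73 on the separated-Cy3 arrays. All 5 arrays of the second orientation were below 0, as for 6.61% of all spots, and the first orientation had 1 array above 0. The mean was -0.53 ± 0.49 (SD, n = 10 arrays), or 1.44-fold lower in the separated pool, with orientation means of -0.43 ± 0.66 and -0.63 ± 0.26 (SD, n = 5 arrays each). It thus stayed short of 1.5-fold and was not called, and limma gave an adjusted p of 0.149 over all spots. Without replicate 5 of the separated-Cy5 arrays, its value was -0.62 with all 9 arrays below 0, which meets the call. Under that omission 63 of all spots were called. It left out the only Avp array above 0, so that 1 sign on the rest was given in advance. No other single-array omission gave a call of Avp. Across the array, 3.2% of spots were below 0 on at least 9 arrays.

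Within 1 dye, the pools can be set side by side over different arrays. In Cy5 the Avp spot ranged from 330 to 542 in the separated pool and from 598 to 1211 in the non-separated pool, with no overlap. Divided by each array's median in that dye, the ranges did overlap, at a mean log2 level of 0.21 ± 0.26 in the separated pool and 1.17 ± 0.50 in the non-separated pool (SD, n = 5 arrays each). In Cy3 the scaled levels were 0.55 ± 0.44 in the separated pool and 0.68 ± 0.51 in the non-separated pool. None of the 5 genes had scaled intensities without overlap in Cy5 (1.19% of all spots did) or in Cy3 (2.64%). This comparison was also chosen after the data were seen.

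Oxt, the neighbour of Avp in the genome and the other large-neuron peptide gene, had no steady direction. Its intensities with the separated pool in Cy5 were 208, 280, 5.19, 169 and 159, against 358, 377, 491, 340 and 237 for the non-separated pool in Cy3. In the other orientation the separated pool in Cy3 gave 316, 356, 208, 317 and 516, against 248, 344, 232, 318 and 173 for the non-separated pool in Cy5. The separated value of replicate 3 in the first set stands far below the other arrays, and the rest of the 2 pools overlap.

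The Oxt log2 ratios were 0.29, 0.54, -2.39, -0.02 and 0.37 on the separated-Cy5 arrays, and -0.67, -1.02, -0.02, -0.71 and 0.54 on the separated-Cy3 arrays. Over the 10 arrays the mean was -0.31 ± 0.92 (SD), an SD larger than that of 94.9% of all spots, with 6 arrays below 0. The orientation means were -0.24 ± 1.22 and -0.37 ± 0.63 (SD, n = 5 arrays each). Leaving out replicate 3 of the first orientation gave -0.04, so the size of the balanced mean depends on that array. The second orientation, which does not hold it, had 4 of 5 arrays below 0. The limma adjusted p was 0.631. Of the 10 pairs among the 5 genes, Avp and Oxt had the highest Pearson correlation of ratios over the 10 arrays, 0.59. This is a description of arrays that share both pools and all array effects. Both genes had their lowest ratio on replicate 3 of the separated-Cy5 arrays (-1.27 for Avp and -2.39 for Oxt). The correlation without that array was not computed, so the rank of this pair may depend on it.

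Trh, the releasing hormone gene of the thyroid axis, took opposite directions in the 2 orientations. Intensities with the separated pool in Cy5 were 723, 717, 451, 412 and 664, against 3100, 2129, 2614, 1195 and 1672 for the non-separated pool in Cy3. With the separated pool in Cy3 they were 2582, 2011, 420, 175 and 1354, against 697, 928, 579, 62.8 and 477 for the non-separated pool in Cy5. Cy3 was the brighter channel on 9 of the 10 arrays whichever pool it carried, the exception being replicate 3 of the separated-Cy3 arrays.

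The Trh log2 ratios were -0.89, -0.48, -0.97, -0.50 and -0.12 on the separated-Cy5 arrays, below 0 on all 5 as for 12.2% of all spots. On the separated-Cy3 arrays they were 0.78, -0.08, -0.17, 0.53 and 0.55, above 0 on 3 of 5. The orientation means were -0.59 ± 0.34 and 0.32 ± 0.42 (SD, n = 5 arrays each), and their mean was -0.13 ± 0.60 (SD, n = 10 arrays). Orientation means of opposite sign occurred for 56.1% of all spots. In limma the dye term of Trh had an adjusted p of 0.0539, short of 0.05, which 5.49% of all spots passed, and the pool term had an adjusted p of 0.665. The separated-Cy5 arrays taken alone give the sign of the balanced mean, and the separated-Cy3 arrays alone give the opposite sign.

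Crh, the gene of the main releasing hormone of the stress axis, was read at the level of a typical empty spot in both pools. Its intensities with the separated pool in Cy5 were 56.2, 14.5, 60.5, 36.0 and 132, against 39.8, 54.0, 179, 21.6 and 133 for the non-separated pool in Cy3. With the separated pool in Cy3 they were 275, 123, 81.5, 172 and 94.4, against 105, 84.8, 47.1, 161 and 45.8 for the non-separated pool in Cy5. The ranges of the pools overlap in both dyes.

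On the log2 scale, Crh stood at 1.04, -0.13, -0.11, 0.69 and 0.76 on the separated-Cy5 arrays and at 0.25, -0.49, 0.36, -0.60 and -0.08 on the separated-Cy3 arrays. Of the 10 arrays, 5 were above 0, the orientation means were 0.45 ± 0.54 and -0.11 ± 0.43 (SD, n = 5 arrays each), and the mean was 0.17 ± 0.54 (SD, n = 10 arrays; limma adjusted p of 0.640). At this brightness a difference in Crh between the pools was not detectable, which is no measure of its absence.

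Crhr1 had the mean ratio farthest from 0 of the 5 genes, from a dim spot. Its intensities with the separated pool in Cy5 were 48.5, 11.9, 32.8, 98.9 and 29.8, against 376, 161, 228, 316 and 160 for the non-separated pool in Cy3. With the separated pool in Cy3 they were 258, 478, 28, 53.4 and 174, against 160, 183, 76.8, 256 and 164 for the non-separated pool in Cy5. On 3 of the 5 arrays of the second set the separated channel was the brighter one before normalisation.

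The Crhr1 log2 ratios were -1.29, -1.21, -0.86, -0.56 and -0.92 on the separated-Cy5 arrays, all below 0, and -0.34, 0.23, -0.83, -2.47 and -0.81 on the separated-Cy3 arrays, where replicate 2 was above 0. The mean was -0.91 ± 0.70 (SD, n = 10 arrays), with orientation means of -0.97 ± 0.29 and -0.84 ± 1.01 (SD, n = 5 arrays each). The mean is past 1.5-fold, as for 0.648% of spots on the lower side whatever the signs, but no array had the spot above the empty-spot limit, so its size is not resolved and no fold is given. It was not called because of replicate 2, the only array above 0. Without that array it stood at -1.04 and met the call, as 77 of all spots did under that omission. The 1 sign on the rest was given in advance, and no other single-array omission gave a call of Crhr1. On all 10 arrays limma gave an adjusted p of 0.0993. Leaving out replicate 4 of the same orientation, the array with the widest ratios, gave -0.70. In the separated pool the spot was below the empty median on 6 of 10 arrays, and with normexp at offset 0, which leaves low intensities lower, the mean was -1.65.

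**Figure D3:**
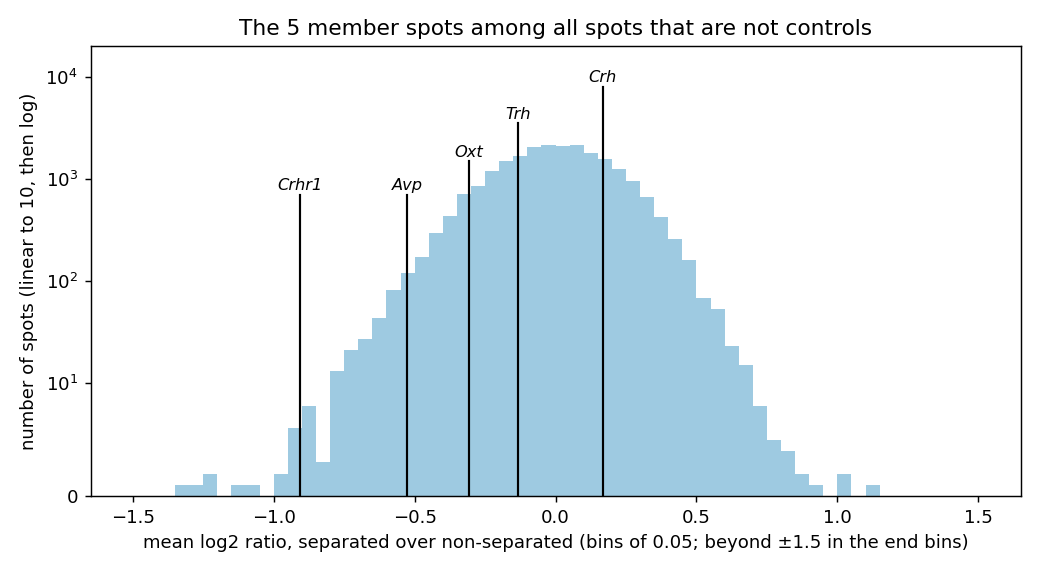
Number of spots (axis linear to 10, then logarithmic) by mean log2 ratio of separated over non-separated RNA, for all 22824 non-control spots, with the 5 genes marked by vertical lines. Crhr1 at -0.91 and Avp at -0.53 lie in the lower tail, and Oxt, Trh and Crh lie within the bulk.

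Set among all spots, the size of the mean was above that of 98.2% of spots for Avp, 85.3% for Oxt, 57.3% for Crh and 47.8% for Trh. The spread over arrays was not unusual for Avp, whose SD exceeded that of 44.9% of spots, and it exceeded that of 55.3% for Crh, 64.9% for Trh and 78.7% for Crhr1. In the authors' deposited table, turned to separated over non-separated, Crh stood at 0.44, Crhr1 at -1.27, Oxt at -0.56 and Trh at -0.02 in the mean of the 10 arrays, each with the sign of the values above; Avp of that table was not used here. Without the 3 arrays that stood apart, an omission chosen after the data were seen, the values were -0.65 for Crhr1, -0.46 for Avp, -0.04 for Oxt, -0.04 for Trh and 0.24 for Crh, none of them called.

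Genes that act with these hormones were listed in 6 groups of 62 symbols, of which 41 had a spot, 60 spots in all. None of the 60 was called (0.254% of all spots), 33 lay above 0 and 27 below, and their median was 0.03, where the median of all spots was 0.00. Of the 41 genes, 7 (Cartpt, Cpe, Fkbp5, Furin, Nr3c1, Nts and Scg5) had a spot that passed the empty-spot limit. All values in the next paragraphs are mean log2 ratios of separated over non-separated RNA ± SD over 10 arrays.

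Among 11 of 14 genes of the corticotropin-releasing hormone family and stress axis (13 spots, median 0.05), the lowest was Ucn2, a peptide ligand of the receptor CRHR2, at -0.68 ± 0.72 with 8 arrays below 0, from a dim padded-name spot like those of Crh and Crhr1. The highest was Mc2r, the corticotropin receptor of the adrenal, at 0.41 ± 0.57. Its orientation means were 0.88 on the separated-Cy5 arrays and -0.05 on the separated-Cy3 arrays. Crhr2, the second receptor of the family, was at 0.06 ± 0.78. The glucocorticoid receptor gene Nr3c1 had 2 spots, a bright one at 0.05 ± 0.26 and a dim one at -0.16 ± 0.74, and Fkbp5, a glucocorticoid-induced regulator of that receptor, was at 0.16 ± 0.29. The bright Nr3c1 spot and the Fkbp5 spot were the 2 of the group above the empty-spot limit.

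Receptors and degrading peptidases of vasopressin and oxytocin were represented by 6 of 7 genes (7 spots, median 0.14). Oxtr, the oxytocin receptor, named on the array only by similarity, was lowest at -0.18 ± 0.81. Its orientation means had opposite signs, 0.19 on the separated-Cy5 arrays and -0.56 on the separated-Cy3 arrays. Prep, prolyl endopeptidase, which cleaves small peptides after proline, was highest at 0.39 ± 0.55, and its other spot was at 0.27 ± 0.52. The vasopressin receptor genes Avpr1a, at 0.28 ± 0.76, and Avpr2, at 0.08 ± 0.98, were dim, and none of the group passed the empty-spot limit. Of the thyroid axis, 4 of 10 genes had a spot (8 spots, median -0.03). Thrb, a thyroid hormone receptor, was lowest at -0.46 ± 0.85. Pgpep1, a peptidase that removes pyroglutamate as found at the start of thyrotropin-releasing hormone, was highest at 0.53 ± 0.80 from 1 of 3 spots. The other Pgpep1 spots lay at -0.04 ± 0.69 and -0.08 ± 0.99. The highest Pgpep1 spot had orientation means of 0.04 on the separated-Cy5 arrays and 1.02 on the separated-Cy3 arrays.

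The enzymes and helpers that cut and finish peptide precursors were represented by 6 of 7 genes (13 spots, median -0.06). The bright spot of Furin, a protease of the secretory pathway, was below 0 on all 10 arrays at -0.43 ± 0.16, short of 1.5-fold, with a limma adjusted p of 0.0657. Its dim second spot was the highest of the group at 0.40 ± 0.97, so the spots of 1 gene disagreed in sign. Among other hypothalamic peptides (10 of 17 genes, 13 spots, median 0.02), Cck, cholecystokinin, was lowest at -0.47 ± 0.76 and Penk, the enkephalin precursor, highest at 0.34 ± 0.79, with its other spot at 0.00 ± 0.42. Among transcription factors of PVN development (4 of 7 genes, 6 spots, median 0.08), Nhlh2 was lowest at -0.28 ± 0.63. Its orientation means had opposite signs, -0.70 on the separated-Cy5 arrays and 0.14 on the separated-Cy3 arrays. Pou3f1 was highest at 0.36 ± 0.26, above 0 on all 10 arrays from a spot that passed the empty-spot limit on none.

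**Figure D4:**
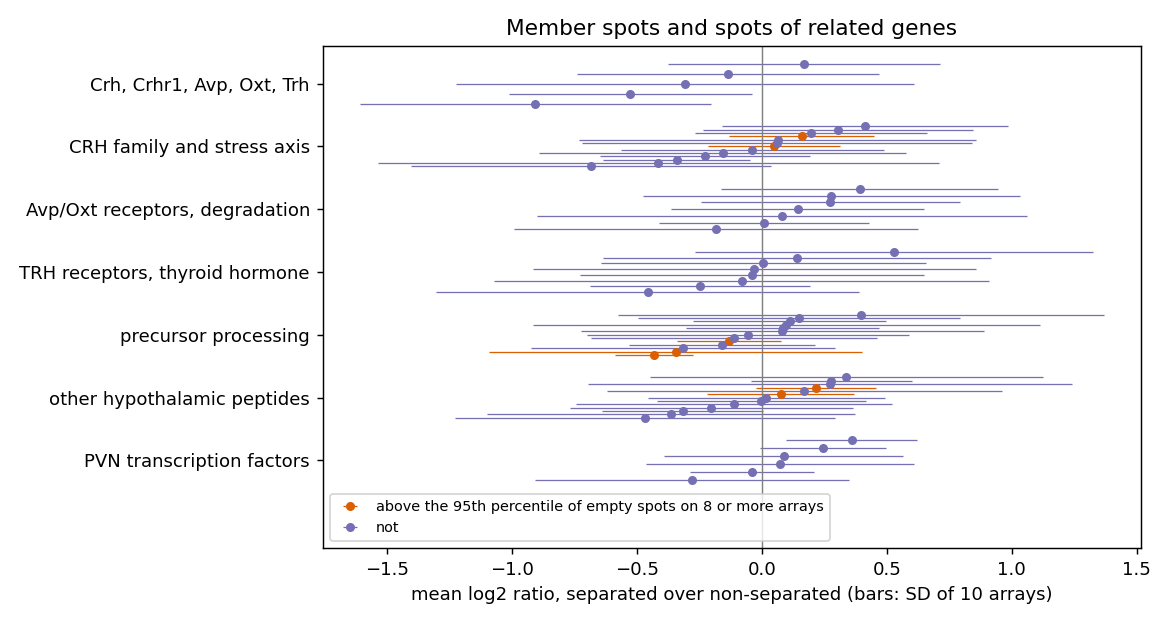
Mean log2 ratio of separated over non-separated RNA for each spot of the 5 genes (top row) and of the 6 related groups, with bars for the SD of 10 arrays; orange points passed the 95th percentile of empty spots on at least 8 arrays and violet points did not. Most bars cross 0, but those of Crhr1 and Avp in the top row, and of Adcyap1, the bright Furin spot and Pou3f1, do not. The narrow bar below 0 among precursor processing genes is the bright Furin spot at -0.43.

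The labelled tissue was checked against markers. Of 8 PVN neuron markers, 6 had a spot (8 spots, the 4 peptide genes included), 0 of the 8 passed the empty-spot limit, and no spot was matched to Sim1 or Otp, regulators that define PVN neurons. Spots of 2 of 3 thalamic markers passed it (Prkcd and Tcf7l2), as did 2 of 5 astrocyte markers (Aldoc and Slc1a3) and 2 of 4 oligodendrocyte markers (Mbp and Mobp), but none of the arcuate, suprachiasmatic, choroid plexus, microglial or pituitary markers with a spot, and no lateral hypothalamic marker had a spot. Counted by spots, 2 of 8 thalamic, 5 of 10 astrocyte and 2 of 21 oligodendrocyte spots passed it, beside 11.2% of all spots. Of the 10 astrocyte spots, 3 were called lower in the separated pool (0.18% of all spots were), 2 of the 4 Aldoc spots and the 1 Gjb6 spot, and the list median was -0.20, below 0 on all 10 arrays. The other astrocyte genes had no called spot: the 2 Slc1a3 spots, both above the empty-spot limit, were at -0.02 ± 0.22 and 0.10 ± 0.39, the 2 Gfap spots at 0.13 ± 0.64 and -0.20 ± 0.48 and Aqp4 at -0.10 ± 0.60. The summed level of the astrocyte spots, in multiples of the array median, was 52.4 to 67.5 in the separated pool and 59.0 to 84.4 in the non-separated pool in Cy5, and 43.4 to 66.9 in the separated pool and 68.2 to 110 in the non-separated pool in Cy3. Oligodendrocyte markers had a median of -0.16 with 16 of 21 spots below 0, 0 of them called, and a median below 0 on 9 of 10 arrays. Their summed level was 120 to 155 in the separated pool and 112 to 135 in the non-separated pool in Cy5, and 76.3 to 105 in the separated pool and 89.3 to 107 in the non-separated pool in Cy3. That sum comes mainly from 1 Mobp spot, with median intensities of 40530 in Cy5 and 46724 in Cy3. The ratio of that spot had orientation means of 0.61 and -0.21, so the sum is no measure of the whole list. Thalamic markers had 7 of 8 spots above 0 and a median of 0.07, below 0 on 2 of 10 arrays. The bright Tcf7l2 spot was at 0.56 ± 0.35, above 0 on all 10 arrays but short of 1.5-fold. Its limma adjusted p was 0.0297. The other Tcf7l2 spots were at 0.23 ± 0.87 and 0.07 ± 0.33, and the bright Prkcd spot at -0.03 ± 0.38. Summed thalamic levels in Cy5 were 16.8 to 139 in the separated pool and 43.9 to 144 in the non-separated pool. In Cy3 they were 62.0 to 81.5 in the separated pool and 15.4 to 94.4 in the non-separated pool. The thalamic sum comes mainly from the bright Prkcd spot, with median intensities of 39251 in Cy5 and 53522 in Cy3 and lowest values of 129 and 533. The part of these cell types in the Avp and Crhr1 values was not tested. PVN neuron markers summed to 12.2 to 14.2 in the separated pool and 11.1 to 17.1 in the non-separated pool in Cy5, and to 11.6 to 17.5 in the separated pool and 12.3 to 16.7 in the non-separated pool in Cy3, so that their ranges overlapped in both dyes. Much of that sum comes from Arnt2 and Pou3f2. The brightest Arnt2 spot had medians of 1563 in Cy5 and 3668.5 in Cy3, and Pou3f2 of 1141 and 2620. Oxt, at 220 and 348, and Crh, at 58.4 and 109, add little, so the sum is no measure of the peptide genes.

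By ratios over the 10 arrays, the spots most like each gene were sought among 1243 spots that passed the empty-spot limit and carried a gene name, as a description of array behaviour. Trh was most like selenoprotein P, plasma, 1 (Pearson r of 0.96) and Tsg101, a tumor susceptibility gene (0.94), and the correlation of Trh itself with dye orientation was -0.80. Crh was most like lymphoid enhancer binding factor 1 (0.90) and phosphatidylinositol glycan, class H (0.87). Crhr1 was most like delta/notch-like EGF-related receptor (0.85) and LIM only 1 (0.84). The nearest to Avp were ADP-ribosylation factor 1 and cholinergic receptor, muscarinic 1, CNS (both 0.79). Oxt was nearest to basic helix-loop-helix domain containing, class B2 (0.81) and UDP-GlcNAc:betaGal beta-1,3-N-acetylglucosaminyltransferase 3 (0.76). All points share the 2 pools, and the mean pool ratios of these spots lay between -0.43 and 0.16. These are the highest of 1243 correlations over 10 arrays, and the height that such picking alone would give was not computed.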

How the data were processed

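Two-colour spotted arrays were read as deposited. Spot intensity and local background are deposited on a linear intensity scale and, per the file headers, came from QuantArray with a fixed spot circle and were not background-subtracted. The authors' deposited table holds log2 ratios of 19025 spots whose normalization, scaling and direction no source used here states; each column has a median absolute deviation of 0.526 and a median of 0.0011 to 0.0094, and it served as an alternative. In limma 3.58.1 (R 4.3.3), normexp with offset 50 and then global loess within each array were applied, with the 1368 control spots (1170 empty, 192 of control clones, 6 lacZ) at weight 0. A value is the mean of the 2 orientation means, and its SD covers 10 arrays. A call needed at least 1.5-fold and 1 sign on all 10 arrays; a spot passed the empty-spot limit where either channel exceeded the 95th percentile of empty spots on at least 8 arrays. The number of arrays limits precision. The script was tested on simulated data. Named were the spots of the 5 genes, any called spot of the lists, and per list the spots of the genes with the highest and lowest mean; Crhr2, Avpr1a, Avpr2, Nr3c1 and Fkbp5 were named after their values were seen. For likeness, the 2 named spots of highest Pearson correlation were taken. The 5 genes and all lists were chosen with earlier results of these data known. Spots were matched to symbols by name, partly by alias. Alternatives covered background, normalization, orientation, array omission, limma with and without a replicate block, the authors' values and the empty-spot limit. Replicate numbers follow the labels.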

Additional observations from a re-analysis of the deposited data

Results flagged for a closer look

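The Oxt log2 ratio was -2.39 on separated-Cy5 array 3, compared with -0.02 to 0.54 on the other 4 arrays of that orientation. The gap to the nearest array divided by the range passed Dixon's 95% critical value of 0.71. The separated pool's Cy5 intensity on that array was 5.19, the lowest of the 10 values of that pool, while the non-separated pool read 491, the highest of its 10 values. Of the 10 sets of 5 arrays searched (5 genes in 2 orientations), chance would flag about 1 in 20, or 0.5 sets.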

How the results depend on the processing

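Precision is limited by 1 pool per condition and by signal: 0 of the 5 spots passed the empty-spot limit, so that limit gave no value for them. The count of called spots, 58, was 16 (4 higher, 12 lower) among spots above empty spots, 1605 (913 higher, 692 lower) on separated-Cy5 arrays alone, 688 (354 higher, 334 lower) on separated-Cy3 arrays alone, and 130 (41 higher, 89 lower) without the 3 arrays that stood apart, chosen after the data were seen; fewer arrays need to share 1 sign in these 3. Leaving out 1 array gave 63 to 83, and other processing 52 to 83. With the replicate number as a block, limma (adjusted p under 0.05 and at least 1.5-fold) called 9 spots (0 higher, 9 lower) against 52 without it, with adjusted p of 0.262 for Crhr1 and 0.278 for Avp. Over all spots, the normalised ratios of same-numbered arrays did not deviate together (correlations of -0.03 to 0.02). Whether the numbers pair arrays in another way was not tested. Crhr1 was -1.65 with normexp at offset 0, and the cause was not tested. Over all alternatives Avp lay between -0.63 and -0.42 (21 alternatives), Crhr1 between -1.65 and -0.65, Oxt between -0.60 and -0.02, Crh between -0.11 and 0.55 and Trh between -0.59 and 0.32 (22 each). Leaving out 1 array gave -0.62 to -0.42 for Avp, -1.04 to -0.70 for Crhr1, -0.42 to -0.04 for Oxt, 0.09 to 0.24 for Crh and -0.19 to -0.07 for Trh. Crh turned negative only on separated-Cy3 arrays and Trh positive only there. Besides the omissions named above, Crhr1 (-0.97) and Trh (-0.59) met the call on separated-Cy5 arrays alone, as 1605 of 22824 spots did. Avp (-0.63) met it on separated-Cy3 arrays alone, as 688 of 22824 spots did. With 5 arrays of 1 orientation, pool and dye cannot be told apart.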
